A study of Homo sapiens with 5 samples.

Results

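The genes described here are the voltage-gated sodium and calcium channel genes of the NCI-H209 RNA-Seq data. They were chosen by symbol in the deposited name table: the pore-forming sodium channel α subunits and their β subunits (SCN followed by a number and A or B), the calcium channel α1 pores (CACNA1), and the calcium channel α2δ (CACNA2D), β (CACNB) and γ (CACNG) subunits. The rule found 37 genes among the 64837 entries counted. NCI-H209 is an established human small-cell lung cancer (SCLC) line. The study asked how these tumor cells change beside the endothelium of brain vessels, and compared 3 control libraries of parental, untreated cells with 2 libraries of cells co-cultured for 24 h with human brain microvascular endothelial cells (HBMECs). The study lists RPMI-1640 with fetal bovine serum as the medium of the tumor line, and adds Nu-serum for the HBMECs. Its methods do not state the medium during co-culture, and an effect of serum on the comparison was not tested. In the co-culture the HBMECs sat in a Transwell insert above the tumor cells, separated from them by a porous membrane. Only the tumor cells were harvested for total RNA, and rRNA-depleted, strand-directional libraries were made. All 5 libraries come from 1 tumor line, and the labels do not say whether replicates were separate cultures, so p-values measure only the spread between these samples.

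Voltage-gated channels open when the membrane depolarizes. Sodium channel α subunits carry the fast inward current that starts an action potential, and their β subunits set its kinetics, the surface level of the channel and its contacts with adhesion molecules. Calcium channel α1 subunits form P/Q-type (CACNA1A), N-type (CACNA1B), L-type (CACNA1C, CACNA1D, CACNA1F and CACNA1S), R-type (CACNA1E) and T-type (CACNA1G, CACNA1H and CACNA1I) channels. The cytosolic β and the extracellular α2δ subunits bring the high-voltage types to the membrane, where calcium entry triggers exocytosis. SCLC is a neuroendocrine tumor whose cells can fire action potentials, and P/Q-type channels are the target of the autoantibodies of Lambert-Eaton myasthenic syndrome, which accompanies some cases of SCLC.

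RefSeq lists promoters on GRCh38.p14 for 24 of the 37 genes. The 250 bases before the start site are shown for 4 genes that changed under co-culture and have values in every library below, 2 that fell (CACNA1A and CACNA2D3) and 2 that rose (SCN4B and CACNA1B), so that the sequence upstream of genes moving in opposite directions can be read side by side. Capitals mark GC boxes (GGGCGG, or CCGCCC on the other strand) and hypoxia response cores (ACGTG or GCGTG, or CACGT and CACGC on the other strand). Each is written 5′ to 3′ on the strand of the gene.
CACNA1A, chr19:13506480-13506729, minus strand: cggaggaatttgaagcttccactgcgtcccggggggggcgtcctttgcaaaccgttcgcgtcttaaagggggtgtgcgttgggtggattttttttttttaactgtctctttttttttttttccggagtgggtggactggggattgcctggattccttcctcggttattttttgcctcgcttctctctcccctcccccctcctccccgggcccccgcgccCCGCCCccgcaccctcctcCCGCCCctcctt
CACNA2D3, chr3:54122302-54122551, plus strand: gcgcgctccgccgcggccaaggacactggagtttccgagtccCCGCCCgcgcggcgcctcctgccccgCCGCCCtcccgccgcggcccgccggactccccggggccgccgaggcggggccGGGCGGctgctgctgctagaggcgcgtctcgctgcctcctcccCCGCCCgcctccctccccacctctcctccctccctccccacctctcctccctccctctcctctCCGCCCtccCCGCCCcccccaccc
SCN4B, chr11:118145434-118145683, minus strand: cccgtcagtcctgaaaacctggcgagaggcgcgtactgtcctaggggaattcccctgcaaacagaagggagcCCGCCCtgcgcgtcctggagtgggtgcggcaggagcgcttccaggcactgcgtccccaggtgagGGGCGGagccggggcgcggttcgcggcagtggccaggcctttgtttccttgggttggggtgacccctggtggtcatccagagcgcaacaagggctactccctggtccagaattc
CACNA1B, chr9:137877532-137877781, plus strand: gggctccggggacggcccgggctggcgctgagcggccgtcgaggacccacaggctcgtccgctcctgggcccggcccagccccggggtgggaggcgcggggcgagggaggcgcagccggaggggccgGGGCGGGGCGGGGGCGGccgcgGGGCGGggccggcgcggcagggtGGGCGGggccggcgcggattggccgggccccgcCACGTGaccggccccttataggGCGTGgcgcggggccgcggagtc

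The RefSeq starts of CACNA1A and SCN4B lie inside the GENCODE genes, which begin further upstream, on chromosome 19 at 13633025 and on chromosome 11 at 118152888, so these windows lie before only 1 of their starts. The windows are GC-rich, at 58.8% for CACNA1A, 66.0% for SCN4B, 80.8% for CACNA2D3 and 85.2% for CACNA1B. GC boxes number 2 in CACNA1A, 2 in SCN4B, 6 in CACNA2D3 and 5 in CACNA1B. Of these windows, that of CACNA1B alone holds hypoxia cores, and CACGTG is read as such a core on both strands there. Over the 38 promoters listed for the 24 genes, 20 (52.6%) held a GC box, against 42.6% of all 35116 listed promoters, and 13 (34.2%) held a hypoxia core, against 43.2% of all. A match of letters describes these windows and marks no bound site.

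Each library held between 15457071 and 19157348 reads on genes of its strand, 30.7% to 33.6% of its reads. Unmapped reads were 15.9% and 16.8% under co-culture, against 8.13% to 8.48% in control. Neuroendocrine markers were high in all libraries, and their summed level was 3056 to 3661 CPM (counts scaled to library size with TMM factors) in control and 4177 and 4200 CPM in co-culture. Of 20 endothelial markers, listed as possible marks of HBMEC RNA, 10 could be tested and 2 passed, both higher (ESAM and ANGPT2). Control cells, grown without HBMECs, also held some of them, VWF at 159, 75 and 87 counts against 87 and 90 in co-culture. The list thus does not mark HBMEC RNA alone. The 20 together reached 12.0 to 29.1 CPM in control and 27.7 and 33.1 CPM in co-culture, PLVAP, MMRN1 and ECSCR were at 0 in every library, and 7 of the 20 had at most 3 counts in each. Their part in the channel results was not tested.

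At baseline NCI-H209 expressed a neuronal set of sodium channels, led by SCN3A and SCN8A, and calcium channels of P/Q, N and T type. Levels of different genes were compared as TPM, which divides counts by gene length and scales each library to the same sum, the length being the merged exons of GENCODE release 29. SCN3A, the embryonic brain sodium channel, stood at 136 ± 23.5 TPM (SD, n = 3) and CACNA1H, a T-type pore, at 134 ± 11.5 TPM, with overlapping ranges. Next came the α2δ subunit CACNA2D3 at 54.9 ± 7.5 TPM, CACNA1A at 46.8 ± 3.49 TPM and the α2δ subunit CACNA2D1, which binds gabapentin, at 42.2 ± 4.34 TPM, each overlapping its neighbour in the order. SCN8A, the main sodium channel of mature axon initial segments, followed at 28.0 ± 4.0 TPM. Its range overlapped that of CACNA1B at 25.9 ± 2.76 TPM, and that of CACNA1B overlapped that of the β subunit CACNB2 at 23.7 ± 2.0 TPM.

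The order depended on the length used for CACNA1A, whose merged exons span 43159 bases while its longest transcript has 8665. With the longest transcript as the length, CACNA1A led the genes at 186 ± 14.6 TPM, above SCN3A at 118 ± 21.4 TPM and CACNA1H at 112 ± 8.43 TPM. CACNA2D3 was next, at 55.6 ± 7.02 TPM. CACNB4 and SCN2A also have much longer merged exons than transcripts, and SCN2A, the sodium channel of early axons, stood at 10.8 ± 1.15 TPM on the first length and 17.6 ± 2.0 TPM on the second.

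A middle group lay between 1 and 14 TPM per merged exons. It held the γ subunit CACNG4 (13.5 ± 2.46 TPM), the β subunits CACNB3 (11.8 ± 1.85 TPM) and CACNB1 (8.64 ± 2.38 TPM), the sodium channel β subunits SCN3B (5.39 ± 0.0196 TPM) and SCN4B (3.39 ± 1.30 TPM), and the retinal L-type pore CACNA1F (3.13 ± 1.17 TPM). SCN9A, the channel of pain-sensing neurons, stood at 2.6 ± 0.441 TPM. CACNG5 (1.42 ± 0.680 TPM) and the T-type pore CACNA1I (1.39 ± 0.642 TPM) also belonged to it. On the same length CACNA1D, CACNB4, CACNA2D2, SCN4A, CACNG8, CACNA1G and SCN1A were below 1 TPM. They ran from 0.886 ± 0.175 TPM for CACNA1D, an L-type pore of endocrine cells, to 0.0707 ± 0.0435 TPM for SCN1A. Per longest transcript CACNB4 (2.45 ± 0.154 TPM) and CACNA1D (1.62 ± 0.302 TPM) were above 1 TPM.

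The remaining 10 genes did not pass the filter on low counts and were not tested. They were the L-type pores CACNA1C and CACNA1S, the R-type pore CACNA1E, the γ subunits CACNG1, CACNG2, CACNG6 and CACNG7, the sodium channel α subunits SCN7A and SCN11A, and the β subunit SCN2B. None had more than 11 counts in any library. Where a library held 0 counts, the level was below that of 3 counts, which corresponds to 0.157 to 0.194 CPM, and this limit covers counting error only.

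**Figure D1:**
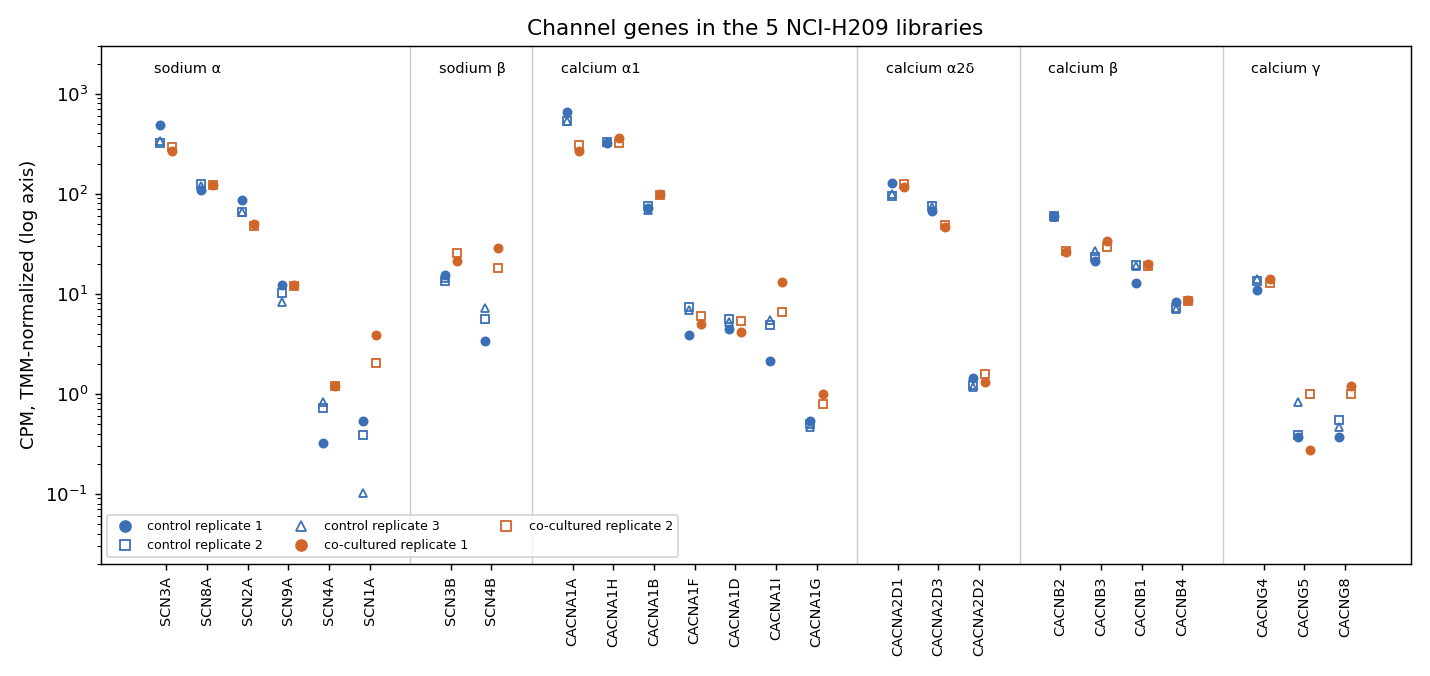
CPM (log axis, TMM-normalized) of 25 tested channel genes in each of the 5 libraries, grouped by subunit family and ordered by control level; blue marks control and orange co-cultured libraries, and each point is 1 library. CACNA1A, CACNA2D3 and CACNB2 lie lower in both co-cultured libraries than in every control library, and SCN4B and SCN1A lie higher.

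Under co-culture the channel genes moved in both directions, and did so within 3 of the 6 families. Of the 27 tested, 8 rose and 4 fell at a Benjamini-Hochberg adjusted p under 0.05 in the quasi-likelihood test of edgeR across 20360 genes, and 15 did not pass. The 8 that rose were 29.6% of those tested, against 18.4% of all genes tested, and the 4 that fell were 14.8%, against 15% of all. The share of falls was thus near the background. In a fit of protein-coding genes only, 7 of the 27 rose and 5 fell, where 21.5% and 20.8% of the 13699 genes tested did, so the rises then lay closer to the background. By the study's criterion, read as a log2 fold change beyond 1 with an unadjusted p under 0.05, 5 genes rose (among them SCN1A, SCN4B, CACNA1I and CACNG8; 5.44% of all genes did) and 1 fell (CACNB2; 5.01% of all genes did). The groups did not overlap for 11 genes on the higher side and 5 on the lower side, where 29.4% and 30% of all genes tested did so. The median log2 fold change was 0.18 over the 27 genes and −0.03 over all genes tested. In bulk RNA, fewer cells of a type and less RNA per cell cannot be told apart.

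With either co-cultured library left out 4 genes rose and 3 fell, the lone sample being assumed to vary like the controls. Over all genes tested, 8.21% rose and 4.62% fell without co-cultured replicate 1, and 8.94% and 5.21% without co-cultured replicate 2. Without control replicate 1, 10 channel genes rose and 5 fell, and over all genes 26.5% rose and 23.0% fell. Beyond a log2 fold change of 1, 3 genes rose without co-cultured replicate 1, and 2 fell, CACNB2 and CACNA1A, without co-cultured replicate 2, control replicate 2 or control replicate 3. With upper-quartile normalization 7 rose and 5 fell, and the split over all genes turned from 3750 higher and 3059 lower to 3076 higher and 3929 lower.

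**Figure D2:**
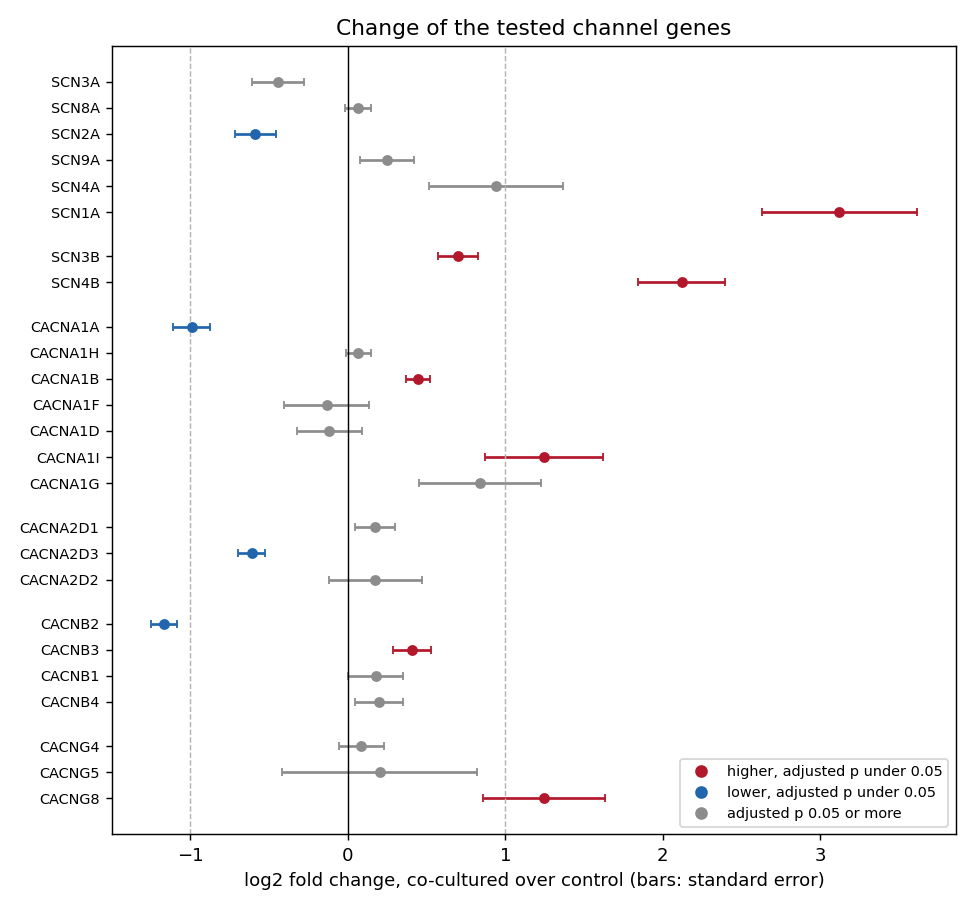
Fitted log2 fold change under co-culture, relative to control, of 25 tested genes, by family and, within it, in order of control level (bars, standard error; dashed lines, 1 and −1); red marks genes that rose and blue genes that fell, by the adjusted p. SCN1A and SCN4B lie farthest to the right and CACNB2 and CACNA1A farthest to the left.

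Among sodium channel α subunits SCN2A fell and SCN1A rose from a few counts. SCN1A, the main channel of many inhibitory neurons (chr2:165984641-166149214 on GRCh38, minus strand), had control counts of 10, 7 and 2, against 71 and 31 under co-culture. Both co-cultured libraries were well above every control, and also differed from each other. Control cells had 0.340 ± 0.218 CPM (SD, n = 3) and co-cultured cells 2.96 ± 1.30 CPM (SD, n = 2). The log2 fold change was 3.12 ± 0.49 (SE; edgeR adjusted p = 0.00159), and 2.58 to 3.62 over the 12 alternatives that tested it, all of which called it.

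SCN2A (chr2:165194993-165392310, plus strand) had a CPM of 87.1, 65.1 and 66.3 in control and 49.2 and 47.7 in co-culture, so that the groups did not overlap and control replicate 1 was the highest. The log2 fold change was −0.59 ± 0.13 (edgeR adjusted p = 0.00788). With either co-cultured library left out it was −0.60 (edgeR adjusted p = 0.0685) or −0.56 (edgeR adjusted p = 0.0866), and the other 11 of 13 alternatives called it, with an adjusted p down to 7.8e-07.

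SCN3A did not pass. Its CPM was 489, 323 and 335 in control and 269 and 294 in co-culture, with control replicate 1 far above the others and both co-cultured libraries below every control. The log2 fold change was −0.44 ± 0.17 (edgeR adjusted p = 0.0679). Without control replicate 1 the difference was smaller, −0.22, while the remaining controls lay closer together and the edgeR adjusted p was 0.00564. DESeq2 gave −0.43 (adjusted p = 0.0366). Over the 13 alternatives, 7 called the fall and the adjusted p ran from 4.6e-05 to 0.320.

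SCN8A, in contrast, had 109, 124 and 119 CPM in control and 123 and 122 CPM in co-culture. The co-cultured values lay within the control range, and the log2 fold change was 0.06 ± 0.08 (edgeR adjusted p = 0.592). SCN9A (0.25 ± 0.17) and the skeletal muscle channel SCN4A (0.94 ± 0.43, with 6 to 16 control counts, then 22 and 18) did not pass either.

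Among sodium channel β subunits SCN4B and SCN3B rose. SCN4B, which supplies the blocking particle of resurgent sodium current in some neurons and also acts in cell adhesion, (chr11:118133377-118152888, minus strand) had 3.35, 5.53 and 7.17 CPM in control and 28.4 and 18.1 CPM in co-culture. The lowest co-cultured value was above the highest control, and the co-cultured libraries differed from each other. Its log2 fold change was 2.12 ± 0.28 (edgeR adjusted p = 0.000606) and ran from 1.76 to 2.41 over the 13 alternatives, all of which called it.

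SCN3B, the non-covalently bound neuronal β subunit, had 15.5, 13.3 and 14.5 CPM in control and 21.4 and 25.6 CPM in co-culture, again without overlap. It rose by 0.70 ± 0.13 on the log2 scale (edgeR adjusted p = 0.00293), or by 0.57 without co-cultured replicate 2 (edgeR adjusted p = 0.0534), the highest adjusted p of its 13 alternatives.

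Among calcium channel pores the P/Q-type gene fell and the N-type gene rose. CACNA1A (chr19:13206442-13633025, minus strand) had 654, 535 and 527 CPM in control, and 268 and 307 CPM in co-culture. Both co-cultured libraries were far below the lowest control. Its log2 fold change was −0.99 ± 0.12 (edgeR adjusted p = 0.000373), 1.99-fold lower, and it was called under all 13 alternatives. CACNA1B (chr9:137877789-138124624, plus strand) had 72.1, 74.8 and 69.4 CPM in control and 100.1 and 96.3 CPM in co-culture, 2 tight groups without overlap. Its log2 fold change was 0.45 ± 0.08 (edgeR adjusted p = 0.00221), and it too was called under all 13 alternatives. The ratio of CACNA1A to CACNA1B counts, which does not depend on library scaling, was 9.07, 7.15 and 7.60 in control and 2.67 and 3.19 in co-culture.

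The T-type pores differed among themselves. CACNA1H, the abundant one, had 321, 326 and 331 CPM in control and 359 and 323 CPM in co-culture, groups that overlapped, and its log2 fold change was 0.07 ± 0.08 (edgeR adjusted p = 0.562). CACNA1I, a scarcer one per length, had 2.13, 4.87 and 5.48 CPM in control and 13 and 6.61 CPM in co-culture. It rose by 1.25 ± 0.37 on the log2 scale (edgeR adjusted p = 0.0303), a value that rested on co-cultured replicate 1, since it was 0.67 (edgeR adjusted p = 0.359) without it. The other 12 alternatives called it, with an adjusted p down to 1.0e-08. CACNA1G, with 9 or 10 control counts and then 18 and 12, did not pass (0.84 ± 0.39).

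The tested L-type pores CACNA1D (−0.12 ± 0.21) and CACNA1F (−0.14 ± 0.27) did not pass and had overlapping groups. For CACNA1D, 33.9% of the reads on both strands lay on the strand opposite the gene, where CHDH overlaps its exons.

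Among the auxiliary calcium channel subunits, CACNB2 and CACNA2D3 fell and CACNB3 rose. CACNB2, which sets trafficking and slows inactivation of high-voltage channels, (chr10:18140677-18543557, plus strand) had 60.1, 60.3 and 58.6 CPM in control and 26.0 and 27.0 CPM in co-culture. Libraries of a group lay close together and the groups far apart. The log2 fold change was −1.17 ± 0.08 (edgeR adjusted p = 4.2e-05), 2.25-fold lower, with the smallest p of the 27, and it was called under all 13 alternatives. It was −0.94 with counts of both strands. Over all libraries, 30.9% of the reads on both strands of CACNB2 lay opposite the gene, where AL390783.1 and AL450384.2 overlap its exons.

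CACNB3, the β subunit often paired with N-type channels, had 21.2, 23.3 and 26.9 CPM in control and 33.6 and 29.6 CPM in co-culture, without overlap. Its log2 fold change was 0.41 ± 0.12 (edgeR adjusted p = 0.0308), close to the threshold. Of the 13 alternatives, 5 did not call it (adjusted p up to 0.245), those without co-cultured replicate 1, co-cultured replicate 2 or control replicate 2 (0.32, 0.50 and 0.40), with protein-coding genes only and with upper-quartile normalization. CACNB1 (0.18 ± 0.17) and CACNB4 (0.20 ± 0.15) did not pass. In counts, CACNB2 was 2.83, 2.59 and 2.17 times CACNB3 in control and 0.774 and 0.913 times in co-culture.

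CACNA2D3 (chr3:54122547-55074557, plus strand) had 66.6, 75.0 and 74.4 CPM in control and 46 and 48.3 CPM in co-culture. All co-cultured values were below all control values. It fell by 0.61 ± 0.09 on the log2 scale (edgeR adjusted p = 0.000980), and all 13 alternatives called it. CACNA2D1 had 129, 94.7 and 99.996 CPM in control, with control replicate 1 the highest, and 118 and 126 CPM in co-culture, within the control range. Its log2 fold change was 0.17 ± 0.13 (edgeR adjusted p = 0.328), and 0.32 without control replicate 1 (edgeR adjusted p = 0.000410), the only one of 13 alternatives to call it, the others reaching an adjusted p of 0.675. CACNA2D2 was near 1 CPM in every library, with 56.4% of the reads on the strand opposite the gene, where CYB561D2 overlaps its exons, and did not pass.

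Several γ subunits act on AMPA receptors rather than on calcium channels, and 1 of the 3 tested passed. CACNG4, the abundant one, had a log2 fold change of 0.08 ± 0.14 (edgeR adjusted p = 0.687). CACNG8, with control counts of 7, 10 and 9 against 22 and 15 under co-culture, rose by 1.24 ± 0.39 on the log2 scale (edgeR adjusted p = 0.0353). Of 12 alternatives 7 did not call it (adjusted p up to 0.245), among them DESeq2 (1.26, adjusted p = 0.132), the replicate block (1.25), and those without co-cultured replicate 1 (1.10) or 2 (1.37) or control replicate 2 (1.39) or 3 (1.25). CACNG5 had 5 to 16 counts in a library and did not pass.

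The make-up of each family was described as the share of each subunit in the family's summed, length-scaled level, computed within each library. In the β family CACNB2 made up 57.3%, 52.1% and 49.6% in control and 27.4% and 30.0% in co-culture, while CACNB3 went from 26.4% ± 1.90 (SD, n = 3) to 42.7% ± 2.25 (SD, n = 2). CACNB2 was thus the largest share in every control library and CACNB3 in both co-cultured ones. In the α2δ family CACNA2D3 went from 56.0% ± 5.71 to 42.4% ± 0.348 and CACNA2D1 from 43.3% ± 5.67 to 56.7% ± 0.261. In control replicate 1 these subunits were already nearly equal, at 49.5% and 49.8%.

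Among α1 pores CACNA1A went from 22.1% ± 2.48 to 11.5% ± 1.69 per merged exons, and from 57.2% ± 3.46 to 38.0% ± 3.90 per longest transcript. CACNA1B rose in share on both lengths, from 12.1% ± 0.458 to 17.0% ± 0.381 and from 6.41% ± 0.440 to 11.5% ± 0.259. CACNA1H, whose CPM overlapped between the groups, made up 63.1% ± 1.66 and then 67.9% ± 1.73 per merged exons, and 34.6% ± 2.54 and then 47.5% ± 3.35 per longest transcript. The largest share in co-culture was that of CACNA1H on either length, whereas in control it was CACNA1H per merged exons and CACNA1A per longest transcript.

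Among sodium channel α subunits SCN3A was the largest in every library, with 75.1% ± 3.92 in control and 70.0% ± 1.5 in co-culture. SCN8A made up 15.8% ± 3.55 and 20.1% ± 0.976. Among the β subunits SCN3B led in every control library, at 59.0% ± 9.66, and SCN4B led in both co-cultured libraries, at 58.8% ± 9.94, per merged exons. Per longest transcript SCN4B led in co-cultured replicate 1 only (60.9% against 33.9%), SCN3B being the larger in co-cultured replicate 2 (48.5% against 46.4%). CACNG4 made up 82.9% ± 3.58 and 83.4% ± 6.60 of the γ subunits.

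**Figure D3:**
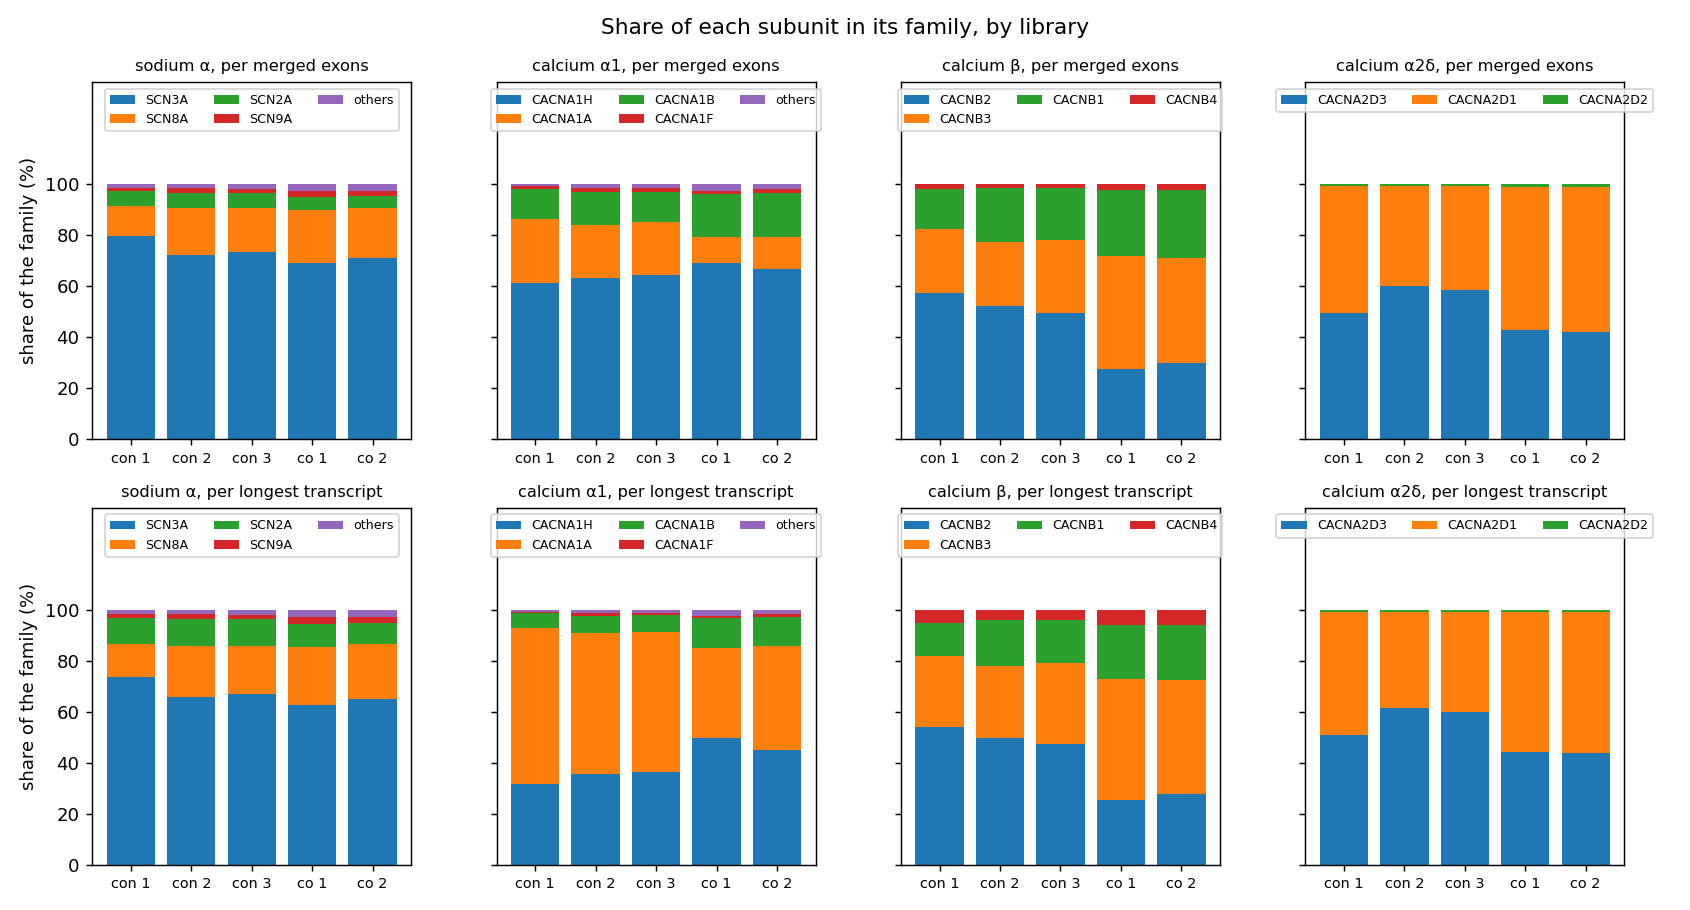
Share (%) of each subunit in the summed length-scaled level of its family in each library (con, control; co, co-cultured), per merged exons in the upper row and per longest transcript in the lower row; "others" sums the subunits that have no band of their own. The CACNB2 band shrinks from 49.6% or more in control to 30.0% or less in co-culture in the upper row, and the CACNA1A band shrinks on both lengths while its size differs between them.

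Several of these genes lie side by side on their chromosomes. On chromosome 2, SCN3A and SCN2A overlap by 9074 bases on opposite strands, followed by SCN1A, which lies 592331 bases on, SCN9A, 45971 bases further, and SCN7A, 27572 bases further. In this cluster SCN2A fell, SCN1A rose, SCN3A and SCN9A did not pass and SCN7A was not tested. On chromosome 11, SCN4B, which rose, lies 9063 bases from SCN2B, which did not exceed 6 counts in a library. On chromosome 19, CACNG8, which rose, lies between CACNG7 and CACNG6, 19099 and 2073 bases away, neither of which was tested.

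Genes that act with the channels were read from the same fit as 8 lists. Of their 140 tested genes 51 rose and 21 fell. Over all genes tested 18.4% rose and 15% fell, the shares to set beside each list below. With protein-coding genes only, 42 of the list genes rose and 27 fell, where 21.5% and 20.8% of all genes tested did. Upper-quartile normalization gave 41 and 28, where 15.1% and 19.3% of all genes tested rose and fell. Without control replicate 2 or 3, 12 or 13 of the list genes fell, where 10.8% or 11.1% of all genes did. With either co-cultured library left out fewer list genes passed in both directions, and so did fewer of all genes. Among 15 cytosolic, scaffold, adhesion and matrix partners of sodium channels, 6 (40%) rose and 2 (13.3%) fell. ANK2, an ankyrin that anchors channels to the membrane skeleton, fell by 0.94 ± 0.14 on the log2 scale (edgeR adjusted p = 0.000993), from 1089 ± 178 CPM to 568 ± 50.1 CPM. FGF12, an intracellular FGF that binds the tail of sodium channels, rose by 0.64 ± 0.12.

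Among 13 tested regulators of calcium channels 6 (46.2%) rose and 1 (7.69%) fell. NCS1, a calcium sensor, rose by 0.47 ± 0.09, CBARP, which lowers calcium current through β subunits, by 0.90 ± 0.18, and GNAI2, an inhibitory G protein, by 0.42 ± 0.09. Of the RGK GTPases, which block high-voltage channels, GEM, with control counts of 17, 28 and 54 against 93 and 58 under co-culture, rose by 1.35 ± 0.38 (edgeR adjusted p = 0.0229). REM2 did not pass, with 3 to 21 control counts and then 8 and 6, and RRAD and REM1 were not tested.

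The sodium leak channel complex was represented by its large subunit UNC80, which fell by 0.30 ± 0.09 (edgeR adjusted p = 0.0349), from 440 ± 38.1 CPM to 358 ± 6.11 CPM. FAM155A (−0.15 ± 0.08) and FAM155B (0.16 ± 0.16) did not pass. The pore NALCN did not exceed 5 counts in a library, and UNC79 was at 0.

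Downstream of calcium entry, 11 (30.6%) of 36 genes of the release machinery rose and 5 (13.9%) fell. STX1A, the syntaxin that binds P/Q- and N-type channels, rose by 1.0 ± 0.11 (edgeR adjusted p = 0.000275), SYT11 by 0.64 ± 0.07 and SYT4 by 0.83 ± 0.11. Of 28 genes of calcium stores and extrusion 12 (42.9%) rose and 2 (7.14%) fell. The sodium-calcium exchanger SLC8A1 rose by 1.05 ± 0.10 and the plasma membrane calcium pump ATP2B1 by 0.66 ± 0.07, while the exchanger SLC24A1 fell by 0.64 ± 0.09. Of 29 calcium sensors and kinases 12 (41.4%) rose and 4 (13.8%) fell. The calcineurin subunits PPP3CA (0.76 ± 0.08) and PPP3R1 (0.52 ± 0.07) and the calcineurin regulator RCAN1 (0.88 ± 0.09) had the smallest p.

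Among 7 other voltage-gated cation channels 1 (14.3%) rose and 3 (42.9%) fell. The endolysosomal channel TPCN1 fell by 0.52 ± 0.10 and the sperm channel gene CATSPER2 by 0.56 ± 0.12, and the pacemaker channel HCN4 rose by 0.47 ± 0.11. Among 9 tested genes of the sodium pump 3 (33.3%) rose and 3 (33.3%) fell. The pump β subunits ATP1B1 and ATP1B3 rose by 1.05 ± 0.12 and 0.40 ± 0.07, and the regulator FXYD6 fell by 0.50 ± 0.11.

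**Figure D4:**
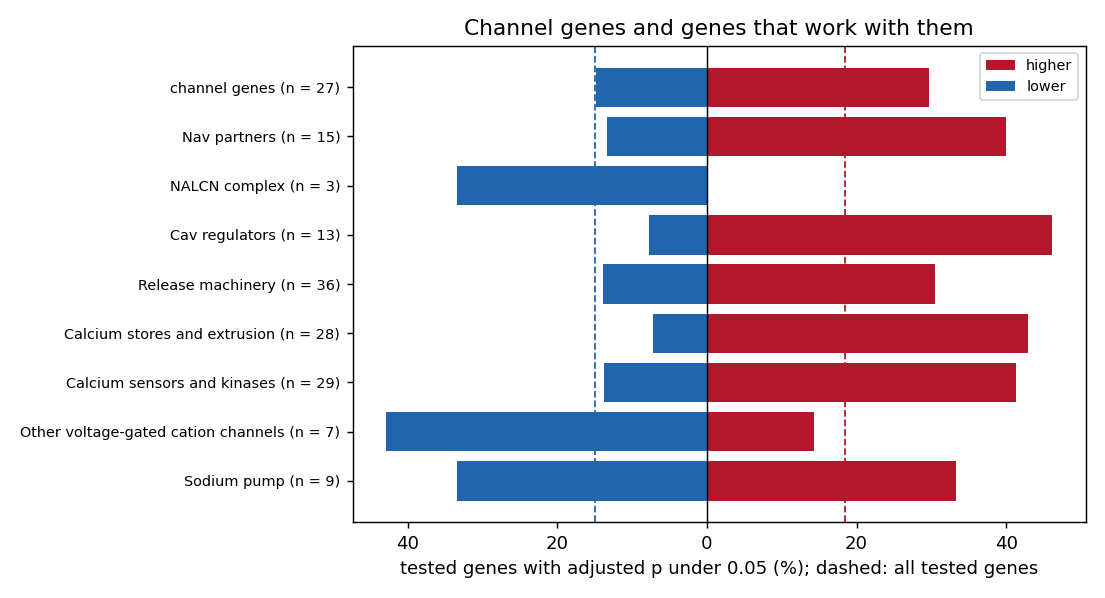
Share (%) of tested genes that rose (red, to the right) and fell (blue, to the left), by the adjusted p, among the channel genes and the 8 lists of genes that act with them; n is the number tested and dashed lines mark 18.4% and 15%, the shares over all tested genes. The channel genes reach 29.6% higher and 14.8% lower.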

How the data were processed

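RNA-Seq was carried out on 3 control and 2 co-cultured NCI-H209 libraries. The authors deposited raw read counts per gene in STAR's layout, on GRCh38. Per the submitters' processing notes, CASAVA 1.8, STAR 2.6.1b and DESeq2 were used. The gene set of the counts held all 58780 genes of GENCODE release 29. The sense-strand column was used, on which 92.3% to 93.1% of the strand-specific gene counts lay. A second deposited table holds the authors' own comparison (group means, log2 fold changes, standard errors, test statistics and p-values). These other columns were not used, only its pairs of gene ID and symbol. Of 40 annotated symbols that match the rule, SCN10A, CACNA2D4 and CACNG3 are not in that table, and had at most 1 count in any library.

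Low counts were filtered with filterByExpr in edgeR 4.0.16 (R 4.3.3), and genes were normalized by TMM and tested with edgeR's quasi-likelihood test, without covariates, over 20360 genes, with Benjamini-Hochberg adjustment over all of them and a threshold of 0.05. The common dispersion was 0.0103 (coefficient of variation 10.2%). Errors after ± are SD for levels and shares and SE for log2 fold changes, the SE being the absolute change over the root of the F statistic. The model was run on simulated counts drawn from its own fitted dispersions. That run checks the code and does not cover changes in genes of few counts or small changes. An exact permutation test of 3 against 2 cannot go below p = 0.1, so none is given. Levels between genes were scaled by length (TPM), and comparisons between groups used CPM. DESeq2 1.42.0, other normalizations and filters, counts without strand, the replicate block and leaving out each library were alternatives.

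The channel genes and all lists were chosen with earlier results of these data known. Every channel gene was accounted for, those called or among the 6 highest in level being given by library, and those not kept by their counts, except that the values of a few genes are not reported here. Of each list up to 3 called genes with the smallest p were named, with all genes of the sodium leak complex and the RGK GTPases.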

Additional observations from a re-analysis of the deposited data

How the results depend on the processing

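Of the 12 channel genes called, 6 (CACNA1A, CACNA1B, CACNA2D3, CACNB2, SCN1A and SCN4B) were called under every alternative that tested them, and 6 were lost under at least 1. Of 345 log2 fold changes under alternatives, 305 kept their direction and side of the threshold, 19 lost and 9 gained a call, and 12, none of a called gene, changed sign without a call. Genes higher beyond a log2 fold change of 1 numbered 3 with at least 10 counts in every library. Genes lower beyond it numbered 2 with that filter, with protein-coding genes only, with the replicate block and with upper-quartile normalization (CACNA1A then passing too), and 0 with unstranded counts. Leaving out each library in turn gave 4 to 10 genes higher and 3 to 5 lower, 3 to 6 and 1 to 2 beyond a log2 fold change of 1, and, of the genes acting with the channels, 24 to 65 higher and 5 to 30 lower. The labels number the replicates in both groups. Differences between replicates 1 and 2 correlated at −0.154 over genes between the groups. This value rests on 2 numbered pairs, so it cannot show whether the numbers pair the samples. With the replicate block 6 channel genes were higher and 5 lower, 6 and 2 beyond a log2 fold change of 1, and 43 and 11 of the genes acting with the channels. Of all genes tested, 13.6% were higher and 10.1% lower in that fit. Standard errors were largest, 0.39 to 0.62, in genes of few counts (CACNG5, SCN1A, SCN4A, CACNA1G and CACNG8). Without strand the reads of CACNB2, CACNA1D and CACNA2D2 cannot be told from those of overlapping genes.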

Other observations

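Reads on the strand opposite CACNB2 were 378, 484 and 490 in control, against 295 and 251 under co-culture. Reads on its own strand were 1130, 1091 and 1144 in control, against 476 and 409 under co-culture. Among the endothelial markers ANGPT2 showed 140, 40 and 32 counts in control, against 254 and 287 under co-culture. FLT1 showed 30, 28 and 0 counts in control, against 1 in each co-cultured library.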
